A study of Mus musculus with 2 samples.

Results

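Polycomb repressive complex 2 (PRC2) writes methylation on lysine 27 of histone H3, and UTX, the product of Kdm6a, removes it. The 8 genes described here were taken by name from the 32285 genes of the series, and all 8 were found in both libraries. They are Ezh1 and Ezh2, Eed, Suz12, Jarid2, Mtf2, Phf19 and Cbx7. The data come from CITE-seq, in which droplets capture the RNA of single cells together with DNA-tagged antibodies on their surface, of Kit+ CD45.2+ mouse bone marrow taken 10 weeks after transplantation. There was 1 control library and 1 library labelled Utx-deleted. The labels give no strain, no Cre driver, no time of deletion and no number of animals for either library, and CD45.2 is the form of the CD45 surface protein by which the cells were sorted.

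EZH2 and EZH1 are the alternative catalytic subunits of PRC2, and the complex cannot work without EED, which binds the methyl mark, and SUZ12, the scaffold. EZH2 is known as the enzyme of dividing cells and EZH1 as the one that remains in resting cells. MTF2 and PHF19 are Polycomb-like proteins that bring one form of PRC2 to CpG-rich DNA, and JARID2 belongs to another form. CBX7 is not a PRC2 subunit: it sits in Polycomb repressive complex 1 (PRC1), where it reads the mark that PRC2 writes. In blood formation PRC2 is known for keeping stem cell and fetal genes silent.

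The control library kept 7011 cells and the library labelled Utx-deleted 7206, with medians of 12367 and 11816 UMIs (unique molecular identifiers, counted as molecules). Wherever a pair of values is given, the control library comes first. Kdm6a stood at 110 and 103 CPM (UMIs scaled to a total of 1000000). The summed count of the target therefore does not bear out the label, though counts of 3-prime ends cannot reveal the loss of an internal exon. The label is therefore kept as "the library labelled Utx-deleted" throughout. The libraries shared 17 cell barcodes. With 1 library in each group no test between conditions was possible. Intervals are exact at 95% and cover counting error only. Each library carried 2 hashtags, antibody tags that mark pooled cell suspensions. What a hashtag stands for is not stated, so values per hashtag show the spread inside a library and are not replicates. Of the cells with both hashtags, doublet removal left out 46.3% and 35.5%. The 204 and 451 that stayed were kept in the sums.

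Cells were placed in gates by the UMIs of marker genes, each gate being a range of marker level and not a cell type. Stem-cell-like cells, defined by Hlf and Mecom, made up 4.39% and 0.93% of kept cells. Elane-positive neutrophil progenitors were 7.82% and 7.26%. Ltf-positive neutrophils, which make secondary granules, were 26.97% and 24.0% when cycling and 26.02% and 30.8% when not cycling. Retnlg-high late neutrophils were 20.6% and 22.4%. Monocyte progenitors were 4.89% and 10.2%, and megakaryocyte-or-erythroid cells 2.995% and 0.97%. Although the cells were sorted as Kit+, Kit RNA was 334 and 379 CPM in the stem-cell-like gate and 32.3 and 25.96 CPM in the Retnlg-high gate. The stem-cell-like gate held 308 and 67 cells and the megakaryocyte-or-erythroid gate 210 and 70, so values there rest on few cells of the library labelled Utx-deleted.

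Ezh2 (chr6:47530139-47595341, minus strand; this and the coordinates that follow are GRCm38, GENCODE M21) was highest, along the neutrophil course, in the stem-cell-like gate and lowest in late neutrophils. It stood at 339 and 341 CPM in stem-cell-like cells, 237 and 204 CPM in Elane-positive cells, and 212 and 221 CPM in cycling Ltf-positive cells. In Ltf-positive cells that were not cycling it was 26.1 and 30.3 CPM, and in Retnlg-high cells 14.7 and 22.6 CPM. Outside that course it was 242 and 221 CPM in monocyte progenitors and 357 and 341.5 CPM in megakaryocyte-or-erythroid cells. The step between cycling and not cycling Ltf-positive cells was the steepest of the course, 8.09-fold in the control library and 7.29-fold in the other. On the log2 scale this was -3.02 (interval -3.16 to -2.88) and -2.87 (interval -2.98 to -2.76), where the median of all genes was -0.10 in each library.

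Ezh1 (chr11:101191115-101226463, minus strand) followed the opposite course in the late gates. Its level was 30.0 and 25.4 CPM in stem-cell-like cells, 16.1 and 17.3 CPM in Elane-positive cells, 10.2 and 10.4 CPM in cycling Ltf-positive cells, 20.3 and 19.1 CPM once Ltf-positive cells were not cycling, and 34.6 and 27.3 CPM in Retnlg-high cells. With scaling to the total the cycling Ltf-positive gate was thus the lowest. The Retnlg-high gate was slightly above the stem-cell-like gate, with overlapping intervals. From Elane-positive to cycling Ltf-positive cells the Ezh1 log2 ratio was -0.66 and -0.75, close to the factor of trimmed-mean (TMM) scaling, -0.67 and -0.65. With TMM scaling these gates would thus be about level. Between not cycling and cycling Ltf-positive cells the Ezh1 log2 ratio was 0.99 and 0.88, and 13.5% and 11.3% of all genes tested were higher by 1.5-fold or more in that step. At 2-fold Ezh1 was not called, and 5.06% and 3.82% of all genes were. The count of Ezh2 UMIs per Ezh1 UMI went from 20.8 (interval 18.6 to 23.3) and 21.4 (19.2 to 23.9) in cycling Ltf-positive cells to 1.29 (1.12 to 1.48) and 1.59 (1.41 to 1.79) when not cycling. In Retnlg-high cells it was 0.42 (0.35 to 0.52) and 0.83 (0.71 to 0.96), the lowest of the 5 gates in both libraries. These are ratios of captured 3-prime ends, which do not scale with transcript length but may be captured unequally, so the course of the ratio is described and not its absolute size.

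**Figure D1:**
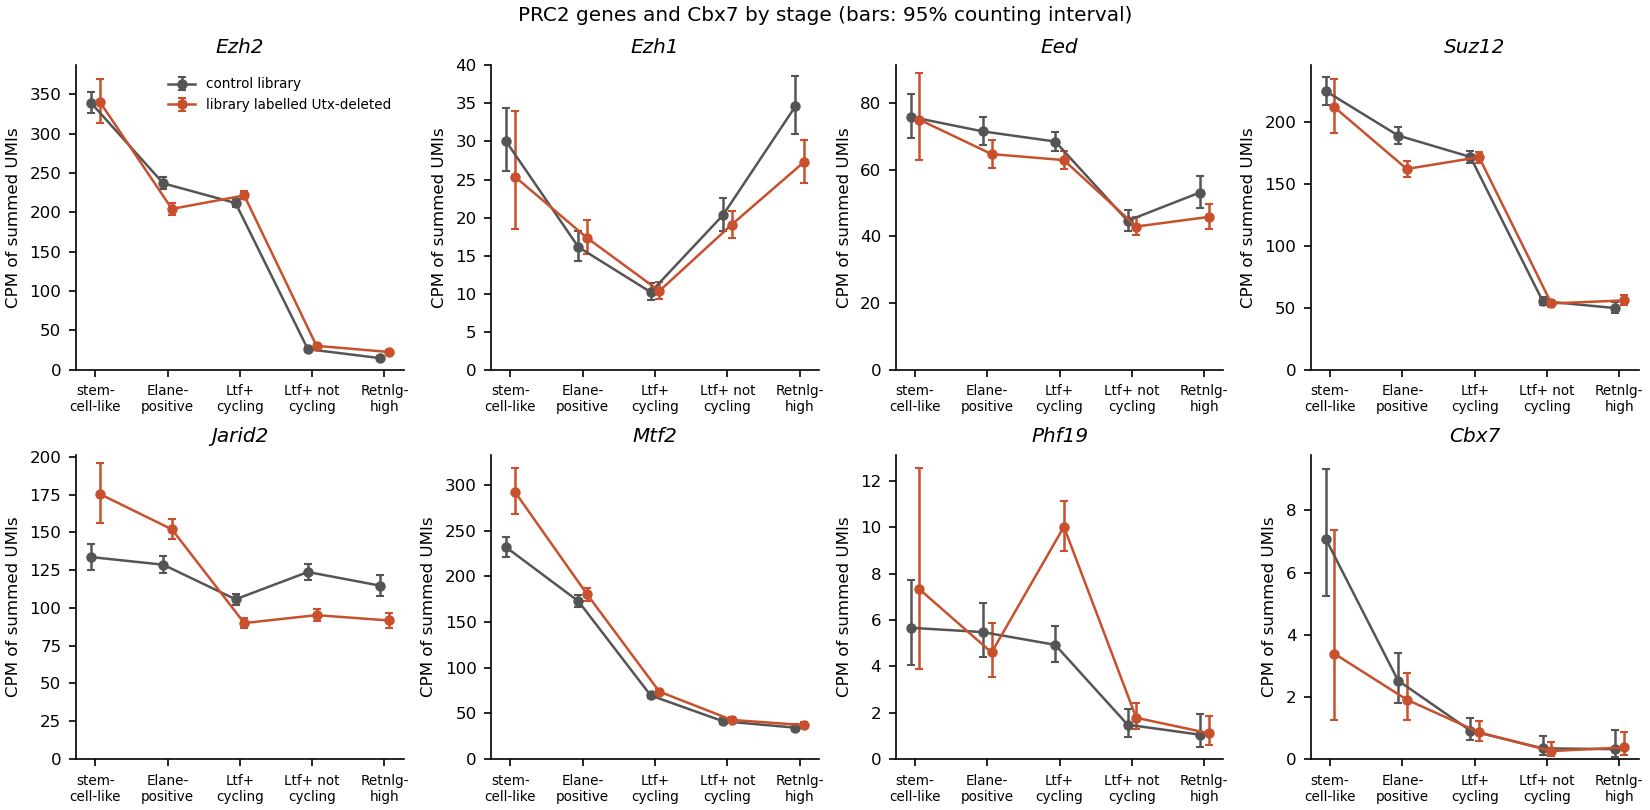
Levels of the 8 genes (CPM of summed UMIs, vertical axis) in 5 gates from stem-cell-like to late neutrophil cells (horizontal axis), for the control library (grey) and the library labelled Utx-deleted (orange), with 95% intervals for counting error. Ezh2 and Suz12 drop between cycling and not cycling Ltf-positive cells, while Ezh1 is lowest in cycling Ltf-positive cells and Phf19 shows the widest gap between libraries there.

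Of the 8 genes, 4 were lower by 1.5-fold or more in not cycling than in cycling Ltf-positive cells of both libraries: Ezh2, Suz12, Mtf2 and Phf19. In that step 24.8% and 23.5% of all genes tested were lower by as much, so a lower level alone does not set these genes apart. At 2-fold Ezh2, Suz12 and Phf19 were called, beside 14.7% and 13.3% of all genes. Suz12 (chr11:79993106-80034123, plus strand) came second among the core subunits. It held 225 and 212 CPM in stem-cell-like cells, 189 and 162 CPM in Elane-positive cells and 172 and 171 CPM in cycling Ltf-positive cells, then 55.3 and 53.4 CPM when not cycling and 49.7 and 55.9 CPM in Retnlg-high cells. Its step was 3.10-fold and 3.21-fold. Eed (chr7:89954654-89980983, minus strand) varied least of the core subunits. It moved from 75.9 and 75.04 CPM in stem-cell-like cells to 68.5 and 62.9 CPM in cycling and 44.7 and 43.0 CPM in not cycling Ltf-positive cells, and was 53.2 and 45.8 CPM in Retnlg-high cells. The subunits of the catalytic core therefore left the cycling gate in unequal measure, Ezh2 most and Eed least.

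The accessory genes divided. With scaling to the total, Mtf2 (chr5:108065674-108109004, plus strand) had its largest step earlier than Ezh2 and Suz12 did, from Elane-positive to cycling Ltf-positive cells. It held 232 and 293 CPM in stem-cell-like cells, 173 and 180.4 CPM in Elane-positive cells and 69.6 and 73.7 CPM in cycling Ltf-positive cells, a 2.48-fold and 2.45-fold step, and reached 34.3 and 37.1 CPM in Retnlg-high cells. The median of all genes in that step was -0.54 and -0.52 on the log2 scale, against -1.31 and -1.29 for Mtf2, and 48.7% and 47.8% of all genes were lower by 1.5-fold or more. Scaled to the total, Ezh2 and Suz12 were within 1.2-fold at the same step in both libraries, while Ezh1 was lower by 1.58-fold and 1.68-fold. The TMM factor was -0.67 and -0.65 on the log2 scale at this step and -0.01 and -0.05 at the next. With TMM scaling the larger Mtf2 step would thus be the next one. Ezh2 and Suz12 would be higher in cycling Ltf-positive than in Elane-positive cells. No direction is therefore given for Ezh1 at this step.

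Jarid2 (chr13:44729474-44921643, plus strand) varied little along the course in the control library and more in the other. It stood at 134, 129, 106, 124 and 114.7 CPM from the stem-cell-like to the Retnlg-high gate of the control library, and at 175, 152, 90.0, 95.2 and 91.7 CPM in the other. The count of Mtf2 UMIs per Jarid2 UMI accordingly went from 1.74 (1.60 to 1.88) and 1.67 (1.45 to 1.93) in stem-cell-like cells to 0.30 (0.26 to 0.34) and 0.40 (0.36 to 0.45) in Retnlg-high cells. The balance of captured ends thus moved from Mtf2 towards Jarid2 along the course in both libraries.

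Phf19 (chr2:34893757-34914026, minus strand) was sparse. It had 471 and 659 UMIs in all, with 5.66 and 7.33 CPM in stem-cell-like cells, 5.48 and 4.60 CPM in Elane-positive cells and 1.05 and 1.11 CPM in Retnlg-high cells. Cbx7 (chr15:79915807-79971119, minus strand) was sparser, with 222 and 153 UMIs. Its level was 7.08 and 3.39 CPM in stem-cell-like cells, on 50 and 6 UMIs, and 0.31 and 0.37 CPM in Retnlg-high cells, on 3 and 5 UMIs. Mtf2 and Cbx7 overlap the genes Tmed5 and Apobec3 on the opposite strand, and Eed and Phf19 each overlap a noncoding transcript counted in the files. The sources used here do not state whether counting used strand, and without strand such partners cannot be told apart.

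Levels in the late gate need a measure of stray RNA. Hlf, a stem cell gene, was present in Retnlg-high cells at 1.68% and 1.83% of its stem-cell-like level, Cd34 at 2.29% and 3.25%, and the granule protease gene Elane at 2.001% and 4.10% of its Elane-positive level. Ezh2 stood at 4.33% and 6.62% of its own highest level in the same gate and Mki67, which marks dividing cells, at 2.21% and 4.52%. Kit, on which the cells were sorted, was at 9.67% and 6.86%, Gata2 at 2.14% and 0.75% and Flt3 at 0.82% and 1.04%. Late Ezh2 was thus above all of these but Kit, while Suz12 kept 22.1% and 26.4%, Mtf2 14.8% and 12.7%, and Eed 70.1% and 61.1% of their highest levels. Late Ezh2 UMIs were found in 90 of 1446 and 131 of 1617 cells, and the top 20 cells held 50% and 53.0% of them. What stray RNA adds to late Ezh2 was not tested.

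Levels scaled to the total depend on the few genes that fill late neutrophils. From Elane-positive to Retnlg-high cells the median of all genes was -1.13 and -1.01 on the log2 scale. Ezh2 was lower by 16.02-fold and 9.04-fold, Suz12 by 3.79-fold and 2.90-fold, and Mtf2 by 5.03-fold and 4.86-fold, beside 59.3% and 57.9% of all genes lower by 1.5-fold or more. Ezh1 was higher by 2.15-fold and 1.57-fold, beside 22.7% and 21.6% of all genes. With cells thinned to 2000 UMIs the Ezh1 log2 ratio was 0.58 and 0.45, short of 1.5-fold, and with TMM scaling 1.98 and 1.58. Without doublet removal the Ezh2 log2 ratio was -2.69 and -2.12, in place of -4.00 and -3.18. With trimmed-mean (TMM) scaling, which moves the median by 0.88 and 0.92, Ezh2, Suz12 and Mtf2 kept their sign, while Jarid2 turned from -0.16 and -0.73 to 0.72 and 0.19 and Eed from -0.43 and -0.50 to 0.46 and 0.43. No direction is therefore given for Jarid2 and Eed over this span.

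The promoters of the 8 genes were searched for the motif of E2F factors, which are known to drive genes of dividing cells. RefSeq promoter sequences (GRCm38.p6, 250 bases before to 50 after the gene start) matched all 8 genes, Jarid2 and Mtf2 with 2 starts each. The letters searched were TTTGGCGC, TTTCCCGC, TTTGCCGC and TTTCGCGC on both strands, overlaps allowed, and 2.265% of 32851 promoters held at least 1 of them. Among the 8 genes the motif was in the promoters of Ezh2, Suz12 and Phf19, and in none of the windows of Ezh1, Eed, Jarid2, Mtf2 or Cbx7. The stretches that hold it are given with the motif in capitals, and that of Ezh1, at the same distance from its start as in Ezh2, is given for comparison. They lie at chr6:47595011-47595053 (minus strand), chr11:79992861-79992920 (plus strand), chr2:34914151-34914210 (minus strand) and chr11:101226444-101226486 (minus strand).
Ezh2: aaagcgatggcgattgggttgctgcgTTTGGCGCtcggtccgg
Suz12: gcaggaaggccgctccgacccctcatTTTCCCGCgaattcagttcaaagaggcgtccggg
Phf19: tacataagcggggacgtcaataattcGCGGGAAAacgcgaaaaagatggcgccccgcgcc
Ezh1: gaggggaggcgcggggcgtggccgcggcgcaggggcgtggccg
Distances are from the RefSeq start, which for Ezh2 and Phf19 lies inside the GENCODE span given above and is not its end. The Ezh2 motif begins 3 bases after that start, the Suz12 motif 219 bases before it and the Phf19 motif, on the opposite strand, 208 bases before it. TTTGAA, the core of the cell cycle homology region, was in the windows of Eed, Suz12, Cbx7 and 1 of the Mtf2 starts, and in 17.9% of all promoters. CCAAT was in the windows of Ezh2, Eed, Suz12, Cbx7, both Jarid2 starts and 1 of the Mtf2 starts, and in 37.4% of all promoters. A match of letters is a description and not a measured binding site.

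Cycling and not cycling cells were then compared inside each gate, with cycling called from 6 mitotic genes that include none of the 8. Ezh2 was higher in the cycling cells in 10 of 10 pairs of gate and library, with the interval clear of 0 in 9. In stem-cell-like cells it was 423 CPM in cycling and 222 CPM in not cycling control cells, against 417 and 207 CPM for the other library. In Elane-positive cells it was 261.03 against 201 CPM and 246 against 169 CPM. The exception to a clear interval was the megakaryocyte-or-erythroid gate of the library labelled Utx-deleted, with 345 against 334 CPM. Under the cycling cut, cells of the stem-cell-like, Elane-positive, monocyte and megakaryocyte-or-erythroid gates held 169 to 334 CPM of Ezh2. That was above the 26.1 and 30.3 CPM of not cycling Ltf-positive cells. The cut reads mitotic genes, so dividing cells in other phases can lie under it. Whether the cells under it had stopped dividing was not tested. In Retnlg-high cells the few cycling cells, 22 and 32, held 179.9 and 143 CPM against 10.4 and 15.96 CPM in the rest.

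Suz12 and Mtf2 were also higher in the cycling cells in 10 of 10 pairs, with log2 ratios of 0.10 to 1.71 and 0.00 to 1.48. Their interval was clear of 0 in 8 and 7 pairs. The median of all genes in these pairs was 0.25 and 0.17 in Retnlg-high cells and between -0.03 and 0.05 in the other gates. In the Fcnb-high gate, not among these pairs because 1 library had 40 cells there, Mtf2 of the control library was lower in cycling cells (-0.54, interval -0.90 to -0.15). Eed was higher in 7 of 10 pairs, 3 of them with a clear interval. Jarid2 mostly went the other way. It was lower in cycling cells in 7 of 10 pairs, 6 of them with a clear interval. In 1 pair the interval was clear in the opposite direction, Retnlg-high cells of the library labelled Utx-deleted (0.45, interval 0.098 to 0.75). It was, for example, 123 against 149 CPM in stem-cell-like cells of the control library and 148 against 223 CPM in those of the other. Ezh1 was higher in cycling cells in 1 of the 8 pairs with 100 or more UMIs, and only 2 of the 8 intervals were clear of 0, on the lower side. The Ltf-positive gates, which are split by cycling themselves, separated Ezh1 too, with log2 ratios of not cycling over cycling cells of 0.99 (interval 0.77 to 1.22) and 0.88 (0.68 to 1.09).

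**Figure D2:**
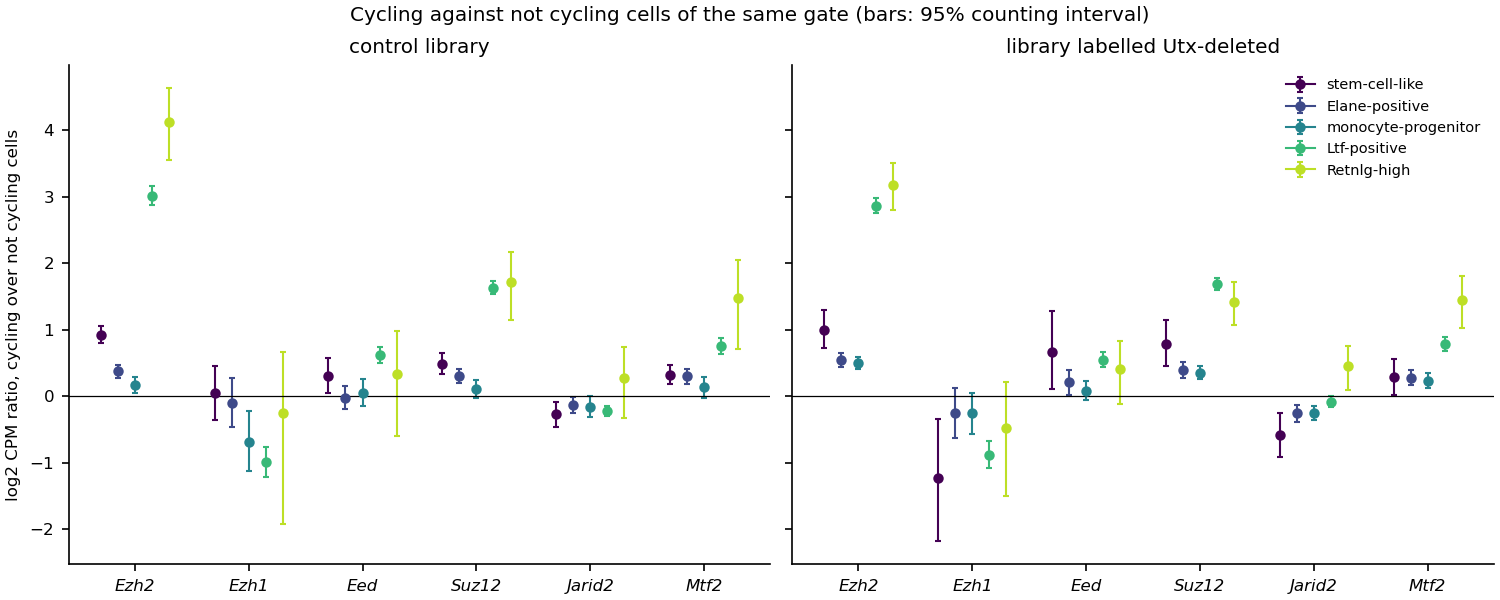
Log2 ratio of CPM in cycling over not cycling cells of the same gate (vertical axis) for 6 genes (horizontal axis), coloured by gate, with the control library on the left, the library labelled Utx-deleted on the right and 95% intervals for counting error. All Ezh2, Suz12 and Mtf2 points lie above 0 and most Jarid2 and Ezh1 points below.

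The antibody tags are a readout that the gates did not use. When the cells of each library were ranked by the CD117 (Kit) tag and cut into 4 equal groups, Ezh2 went from 25.7 and 23.8 CPM in the lowest group to 110 and 81.8, 216 and 189.9, and 266 and 221 CPM in the highest. Suz12 went from 54.4 and 53.6 to 198 and 168 CPM over the same groups and Mtf2 from 36.5 and 35.1 to 166 and 156 CPM. By the Gr1 tag, a marker of maturing granulocytes, Ezh2 went from 282 and 225 CPM in the lowest group to 32.6 and 41.3 CPM in the highest. Ezh1 was highest at the mature end by both tags, with 31.4 and 23.5 CPM in the lowest CD117 group and 30.9 and 24.0 CPM in the highest Gr1 group. Its lowest value was in the third CD117 group, 11.6 and 12.01 CPM, which also held the most cycling cells, 73.5% and 60.4%. Jarid2 lay between 102 and 136 CPM in all CD117 groups of the control library. In the library labelled Utx-deleted it was 92.7 to 98.0 CPM in the lower 3 groups and 153 CPM in the highest. The groups by tag largely separate the same gates. Ltf-positive and Retnlg-high cells made up 98.3% and 99.2% of the lowest CD117 group and 9.53% and 18.0% of the highest. By the Gr1 tag they made up 5.36% and 12.2% of the lowest group and 99.5% and 99.9% of the highest. The courses by tag are therefore not independent of those by gate.

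**Figure D3:**
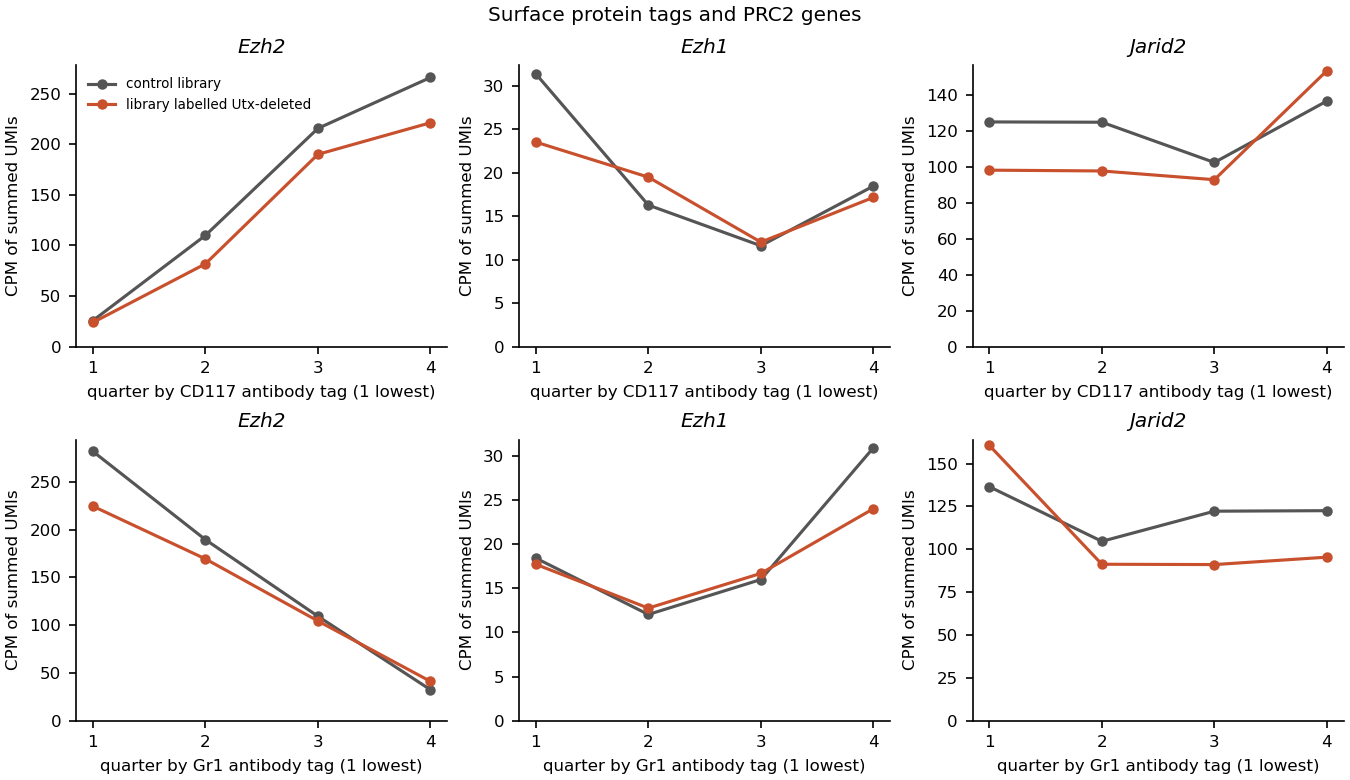
CPM of Ezh2, Ezh1 and Jarid2 (vertical axes) in 4 equal groups of cells ranked by the CD117 tag (upper row) and the Gr1 tag (lower row), for the control library (grey) and the library labelled Utx-deleted (orange). Ezh2 climbs with CD117 and declines with Gr1, and Ezh1 is lowest in the middle groups.

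Over the 10 points given by 5 gates in 2 libraries, the genes whose log2(CPM + 1) followed Ezh2 most closely among 9816 genes were Nucks1, Cenpk and Zgrf1, each with a Pearson r of 0.998. For Ezh1 they were Cr1l (r = 0.992), Atxn7l1 (r = 0.986) and Ulk1 (r = 0.98). Among the members, Ezh2 and Suz12 had r = 0.99 and Ezh2 and Ezh1 r = -0.42. The points share libraries and gates, so these values describe likeness of pattern only.

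Over all kept cells, the 8 genes differed little between the libraries. The log2 ratio of the library labelled Utx-deleted over the control library was -0.29 for Ezh2 (196 and 161 CPM), -0.22 for Suz12 (155 and 133 CPM), -0.16 for Eed (65.8 and 58.9 CPM), -0.14 for Mtf2 (106 and 96.4 CPM), -0.05 for Jarid2 (124 and 119.8 CPM), -0.05 for Ezh1 (17.7 and 17.1 CPM), 0.40 for Phf19 (4.35 and 5.76 CPM) and -0.61 for Cbx7 (2.05 and 1.34 CPM). Their median was -0.15, beside -0.11 for all 13558 genes tested. Cbx7 was the only one past 1.5-fold (interval -0.92 to -0.31), where 10.6% of all genes were lower and 3.17% higher by as much. It was not past 2-fold, where 5.36% of all genes were lower. The Cbx7 ratio was short of 1.5-fold with TMM scaling (-0.49), without doublet removal (-0.57), with a total that leaves out the 20 most abundant genes (-0.55), in hashtag 2 alone (-0.55) and when cells were thinned to 2000 UMIs (-0.20). The libraries differ in their mix of gates, and what the mix adds to these ratios was not tested. With control levels placed in the mix of the library labelled Utx-deleted, the Ezh2 ratio would be -0.23, with a remainder of -0.05. With equal weights for the 5 gates the Ezh2 ratio was -0.016. TMM scaling turned Ezh1 to 0.07 and Jarid2 to 0.08. For Cbx7 control levels in that mix gave -0.43, with a remainder of -0.19, and equal weights gave -0.72. For Mtf2 equal weights gave 0.19, a change of sign.

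Within gates, 45 of the 56 pairs of gene and gate had 100 or more UMIs, and 3 of the 45 passed 1.5-fold. Of all genes tested, 11.2% passed 1.5-fold in either direction in stem-cell-like cells, 7.59% in Elane-positive cells, 10.8% in cycling and 10.2% in not cycling Ltf-positive cells, 14.1% in Retnlg-high cells, 6.75% in monocyte progenitors and 10.1% in megakaryocyte-or-erythroid cells. The count of 3 in 45 is no higher than these shares. At 2-fold 1 pair passed, Phf19 in cycling Ltf-positive cells, beside 3.84%, 2.68%, 4.67%, 3.69%, 5.07%, 2.39% and 3.06% of all genes in the same order of gates. The 3 pairs were Phf19 in cycling Ltf-positive cells, Jarid2 in megakaryocyte-or-erythroid cells and Ezh2 in Retnlg-high cells, and they held up unequally.

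Phf19 in cycling Ltf-positive cells was 4.93 CPM (157 UMIs in 138 of 1891 cells) in the control library and 10.0 CPM (339 UMIs in 293 of 1730 cells) in the library labelled Utx-deleted. The log2 ratio was 1.02 (interval 0.75 to 1.31), where 5.91% of all genes were higher by 1.5-fold or more. Cells of hashtag 1 gave 4.68 and 11.3 CPM and those of hashtag 2 gave 5.39 and 10.2 CPM. No cell held more than 3 Phf19 UMIs, and the top 20 cells held 24.8% and 12.7% of them. Cut into 4 groups by Ltf level, the cells gave log2 ratios of 0.55, 1.06, 1.34 and 1.09 from the lowest Ltf group to the highest. The Phf19 log2 ratio was -0.25 (interval -0.74 to 0.22) in Elane-positive cells and 0.18 (interval -0.22 to 0.60) in monocyte progenitors, and the difference between gates was not tested.

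Of 9 marker genes of earlier cells, 5 were higher and 4 lower in the cycling Ltf-positive gate of the library labelled Utx-deleted. The higher ones were Elane (324 and 541 CPM), Mpo (104 and 259 CPM), Cd34 (4.42 and 9.14 CPM), Mecom (2.17 and 4.88 CPM) and Cpa3 (0.82 and 2.37 CPM). The lower ones were Kit (48.8 and 42.5 CPM), Hlf (18.4 and 11.6 CPM), Flt3 (1.54 and 0.68 CPM) and Fcnb (829 and 468 CPM). In the 4 groups by Ltf level the Elane log2 ratio was 0.91 in the lowest and -0.86, -0.17 and -0.22 in the others. Mki67 was 955 and 786 CPM. The part of earlier cells in the Phf19 ratio was not tested. Without the Ltf-positive cells that reached the cut for the azurophil granule genes Elane, Prtn3, Mpo and Ctsg, the Phf19 ratio was 1.13. Across 13 alternative settings it ranged from 0.65 to 1.26.

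Jarid2 was higher in the library labelled Utx-deleted in early and non-neutrophil gates and lower in its neutrophil gates. The log2 ratio was 0.40 (interval 0.20 to 0.58) in stem-cell-like cells, 0.24 (0.15 to 0.33) in Elane-positive cells, 0.29 (0.20 to 0.38) in monocyte progenitors (119 and 145 CPM) and 0.78 (0.66 to 0.91) in megakaryocyte-or-erythroid cells (204 and 352 CPM). It was -0.23 (-0.30 to -0.16) in cycling Ltf-positive cells, -0.38 (-0.46 to -0.29) in not cycling Ltf-positive cells and -0.32 (-0.44 to -0.20) in Retnlg-high cells. Cells of hashtag 1 and of hashtag 2 each had the sign of their gate in all 7 gates, and each sign held under all 13 alternative settings. The size in the megakaryocyte-or-erythroid gate differed between hashtags, 0.34 and 1.23. That gate joins 2 lineages, which it does not separate, and the share of each may differ between the libraries. Only this pair passed 1.5-fold, where 4.56% of all genes were higher by as much. In the stem-cell-like gate the library labelled Utx-deleted had lower Flt3 (154 and 42.9 CPM) and Cd34 (307 and 203 CPM). It had higher Cpa3 (109 and 198 CPM) and Gata2 (147 and 236 CPM) there. The part of such differences in the Jarid2 and Mtf2 ratios of that gate was not tested.

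Ezh2 in Retnlg-high cells was 14.7 and 22.6 CPM, a log2 ratio of 0.61 (interval 0.33 to 0.92), where 5.82% of all genes were higher by 1.5-fold or more. The hashtags disagreed: hashtag 1 gave 17.2 and 11.02 CPM, a ratio of -0.64, and hashtag 2 gave 11.3 and 23.2 CPM, a ratio of 1.02. Of the 140 and 304 Ezh2 UMIs of the gate, cells of hashtag 1 held 63 and 67 and those of hashtag 2 held 62 and 141. The rest, a larger part in the library labelled Utx-deleted, were in cells with both hashtags or neither. Such cells were few in the gate. Hashtags 1 and 2 marked 574 and 841 of its 1446 cells in the control library and 788 and 756 of 1617 in the other. Elane (125 and 331 CPM), Mki67 (21.1 and 35.5 CPM) and Top2a (29.4 and 43.6 CPM) were higher in the same gate of the same library, and Kit (32.3 and 25.96 CPM) was lower. Among the Retnlg-high cells that were not cycling, the Ezh2 ratio was 0.61 (10.4 and 15.96 CPM), beside 0.18 for Mki67 and -0.46 for Top2a. Without the cells that reached the azurophil cut the Ezh2 ratio was 0.37, with a lower azurophil cut it was 0.14, and it was -0.015 when each cell took the stage with its highest marker z-score. In the other 6 gates the Ezh2 ratio lay between -0.21 and 0.21.

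With the main settings, the other core genes stayed within 1.5-fold in every gate tested. Eed was lower in the library labelled Utx-deleted in 7 of 7 gates, from -0.50 (72.4 and 50.9 CPM) in megakaryocyte-or-erythroid cells to -0.01 in stem-cell-like cells. Suz12 was lower in 6 of 7 gates, at most by 0.22 on the log2 scale in Elane-positive cells, and 0.17 higher in Retnlg-high cells. Mtf2 was higher in 6 of 7 gates, with 0.53 (162 and 234 CPM) in megakaryocyte-or-erythroid cells and 0.34 in stem-cell-like cells. After thinning to 2000 UMIs these were 1.04 and 0.71, past 1.5-fold. The stem-cell-like ratio turned to -0.05 when cells were placed by z-score. Ezh1 was -0.34 (interval -0.56 to -0.12) in Retnlg-high cells, with -0.22 and -0.38 for the hashtags. Cbx7 reached 100 UMIs in none of the gates.

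**Figure D4:**
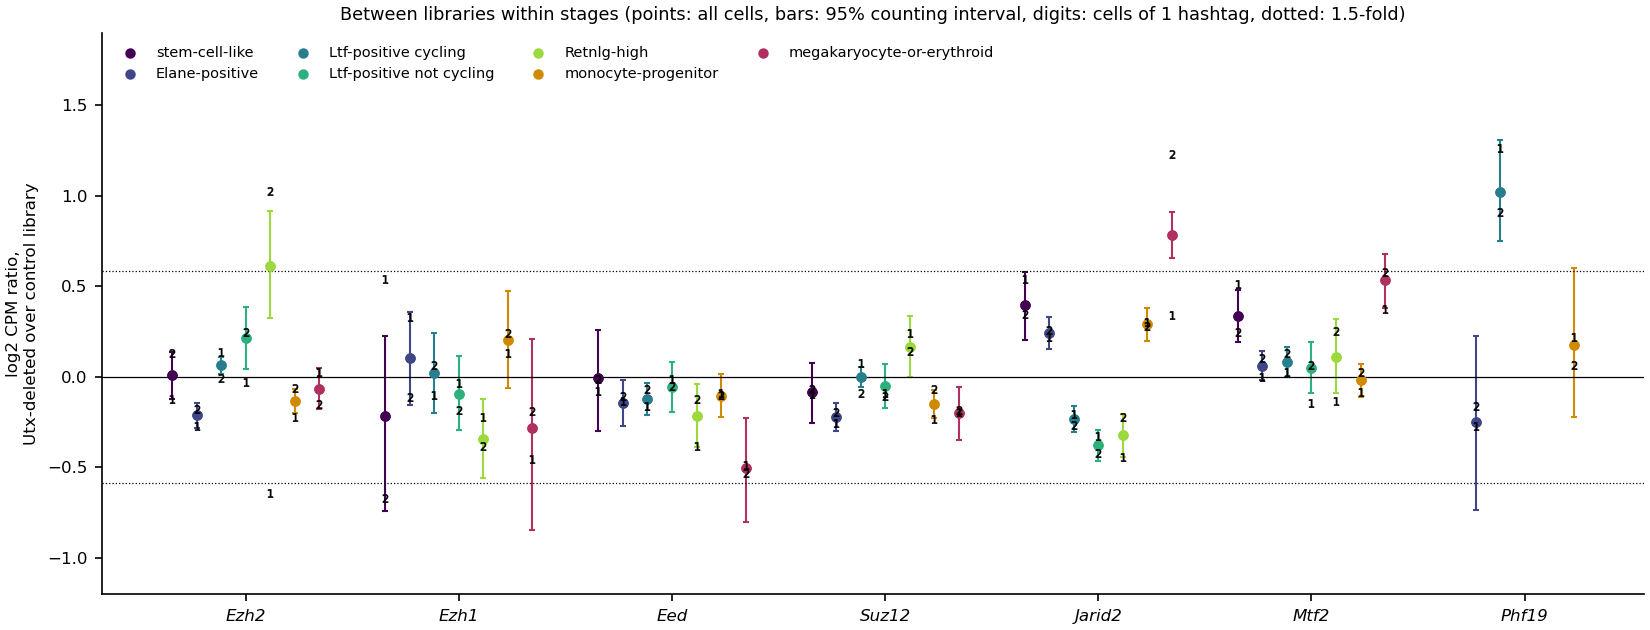
Log2 CPM ratio of the library labelled Utx-deleted over the control library (vertical axis) for 7 genes (horizontal axis) in 7 gates (colours), with 95% intervals for counting error, the ratios of cells of hashtag 1 and hashtag 2 as digits, and dotted lines at 1.5-fold. Phf19 in cycling Ltf-positive cells and Jarid2 in megakaryocyte-or-erythroid cells lie above the upper line, and the hashtags part on opposite sides of 0 for Ezh2 in Retnlg-high cells.

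The rest of the Polycomb machinery was examined from fixed lists. Of 7 other PRC2 subunits (Phf1, Epop, Lcor, Lcorl, Aebp2, Rbbp4 and Rbbp7), none passed 1.5-fold over all kept cells, with a median of -0.14. Within gates the only one was Epop in monocyte progenitors, at 6.35 and 10.1 CPM (log2 ratio 0.66), with hashtags far apart at 0.04 and 1.34, where 2.78% of all genes were higher by as much. Of the demethylase genes, Kdm6a lay between -0.10 and 0.15 on the log2 scale in the 7 gates. Kdm6b, which encodes the other H3 lysine 27 demethylase, was lower in Elane-positive cells (11.6 and 7.57 CPM, log2 ratio -0.61, hashtags -0.48 and -0.78), where 5.15% of all genes were lower by 1.5-fold. With z-score gates this ratio was -0.07. It was -0.57 in cycling and -0.43 in not cycling Ltf-positive cells. Of the PR-DUB genes, whose products remove the PRC1 mark, none of the 3 tested passed 1.5-fold in any gate.

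Of 22 PRC1 genes, Cbx2, a reader subunit of the same family as Cbx7, was the only one past 1.5-fold over all kept cells, at 1.96 and 1.11 CPM (log2 ratio -0.82, and -0.53 in hashtag 2 alone). Scmh1, a PRC1-associated gene, was higher in not cycling Ltf-positive cells (17.0 and 28.1 CPM, 0.73) and in Retnlg-high cells (14.8 and 30.6 CPM, 1.04). Both hashtags were positive, which was a condition for naming it, though 0.55 in hashtag 1 of the former gate is under 1.5-fold. Phc1, a PRC1 scaffold gene, went from 1.65 to 4.41 CPM in not cycling Ltf-positive cells (1.38, on 29 and 104 UMIs). In the same gate Kdm2b was 0.96 and Bmi1 0.75. Elane (177 and 416 CPM) and Mpo (116 and 210 CPM) were higher in that gate too. Without the cells that reached the azurophil cut Bmi1 was 0.55, no longer past 1.5-fold, Kdm2b 0.68, Scmh1 0.69 and Phc1 1.44, and the part of earlier cells in the remaining ratios was not tested. Bmi1 was 0.40 in hashtag 1 alone, and Kdm2b was 0.54 without doublet removal and 0.44 with higher cuts. Bcorl1 in stem-cell-like cells was 0.74 on 185 and 77 UMIs, where 3.69% of all genes were higher by 1.5-fold, but 0.11 after thinning to 2000 UMIs and 0.23 with z-score gates. Cbx8 was -0.83 in Retnlg-high cells, with hashtags at -1.48 and -0.32, where 8.25% of all genes were lower by 1.5-fold. In not cycling Ltf-positive cells 4 of the 17 PRC1 genes tested were higher by 1.5-fold, beside 4.86% of all genes, with a list median of 0.09 beside -0.01.

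Genes known to be silenced by PRC2 mostly had few UMIs. Of the 14 listed, 11 had 0 to 79 UMIs over both libraries, among them Cdkn2a with 45 and 34 UMIs, and were not tested. Igf2bp2 was 1.54 and 0.77 CPM over all kept cells (log2 ratio -0.997, hashtags -1.04 and -0.82, on 167 and 88 UMIs). Hmga2, a chromatin protein gene active in fetal and stem cells, was 118 and 154 CPM in stem-cell-like cells and 35.1 and 45.4 CPM in Elane-positive cells, within 1.5-fold in both gates. In cycling Ltf-positive cells it was 2.92 CPM (93 UMIs in 42 of 1891 cells) and 13.9 CPM (469 UMIs in 190 of 1730 cells), a log2 ratio of 2.24 (interval 1.92 to 2.59). It was 3.87 and 16.8 CPM in not cycling Ltf-positive cells (2.10) and 4.61 and 15.7 CPM in Retnlg-high cells (1.74). In monocyte progenitors it was 15.9 and 16.05 CPM (0.01), and in megakaryocyte-or-erythroid cells 19.5 and 33.3 CPM (0.78). In the latter gate 4.56% of all genes were higher by 1.5-fold or more, and after thinning to 2000 UMIs the Hmga2 ratio was 0.36.

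The spread inside the libraries was wide for Hmga2. In cycling Ltf-positive cells the hashtags gave log2 ratios of 2.28 and 2.76, in not cycling cells 0.76 and 2.997, and in Retnlg-high cells 0.52 and 3.16. The size thus did not hold. The shared sign was a condition for naming list genes and is no added support. Hmga2 was highest in the earlier gates. Of the 9 earlier-cell markers, 5 were higher in the library labelled Utx-deleted in cycling Ltf-positive cells, 4 in not cycling ones and 5 in Retnlg-high cells. Elane, Mpo and Mecom were higher in each of these gates, Mecom at 2.17 and 4.88, 3.47 and 7.20, and 1.36 and 3.26 CPM. Kit and Flt3 were lower in each, and Hlf, Cd34, Cpa3 and Fcnb differed in sign between gates. Without the cells that reached the azurophil cut the Hmga2 ratio was 2.58 in cycling and 2.30 in not cycling Ltf-positive cells and 2.57 in Retnlg-high cells, beside 2.24, 2.10 and 1.74 with them. The part of earlier cells in these ratios was not tested.

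**Figure D5:**
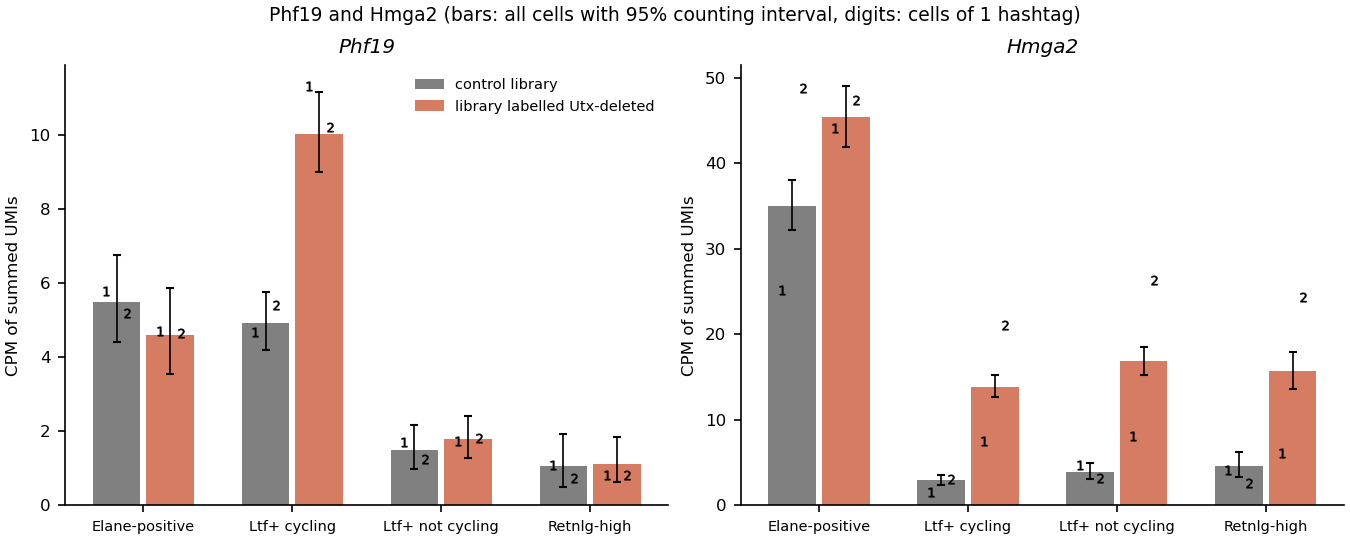
CPM of Phf19 (left) and Hmga2 (right) in 4 gates for the control library (grey bars) and the library labelled Utx-deleted (orange bars), with 95% intervals for counting error and the values of cells of hashtag 1 and hashtag 2 as digits. Phf19 differs in cycling Ltf-positive cells with the hashtags close together, and Hmga2 differs in the 3 later gates with the hashtags of the library labelled Utx-deleted far apart.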

How the data were processed

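The authors deposited raw counts of UMIs per gene and antibody tag for each cell barcode. They were made with Cell Ranger 7.1.0 per the file headers, on mm10 per the submitters' processing notes; the annotation and the calling of cells are not given in the sources used here. Labels' protocols name 10x Genomics 3-prime chemistry.

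Computed here, with Python 3.11.15, numpy 2.4.6, scipy 1.17.1 and Scrublet in scanpy 1.11.5: cells with 500 or more genes and under 10% mitochondrial UMIs were kept, and the top 6% of doublet scores in each library were left out, since the automatic threshold marked 0.0134% and 0% and had not worked. Gates were taken in a fixed order from marker UMIs, with Otsu's threshold on log2(1 + UMIs per 10000). Cells within 0.5 log2 units of a threshold were 4.36% and 4.11% for Retnlg, 1.30% and 0.87% for Ltf and 7.10% and 6.33% for cycling. Gates with under 50 cells in either library were not used. UMIs were summed per gate and library and given as CPM. Log2 ratios were taken after adding 1 UMI per sum; genes with 100 or more UMIs were called at 1.5-fold. Kept cells held 108160461 and 114370198 UMIs. A hashtag was called at 100 or more UMIs and 5 times the other.

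The 8 genes were set by name. From the lists, genes past 1.5-fold with the same sign in both hashtags were named, up to 5 in each direction, and for likeness the 3 genes with the highest r. Kdm6a, Cdkn2a and Kdm2b in Retnlg-high cells fall outside this rule and were chosen after their values were seen. Results of 1 listed gene are not reported here. The genes and lists were chosen with earlier results of these data known. Coordinates are from GENCODE M21, to which 99.6% of the files' gene IDs matched. The ratios were tested on simulated counts over all kept cells, with counting error only and no spread between libraries or hashtags. No gate was simulated. Of genes given a 1.5-fold change 48% were recovered, and of those given a 2-fold change 98%. Of 13358 unchanged genes, 16 and 10 were called in these runs. The share recovered at 1.5-fold follows largely from a call threshold equal to the planted change. How often spread between real libraries leads to a call cannot be read from these runs. Alternatives were other filters, scalings, thinning, each hashtag, and other gates.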

Additional observations from a re-analysis of the deposited data

Results flagged for a closer look

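Among the genes set by name, Jarid2 and Suz12 were flagged because the library labelled Utx-deleted was higher in some gates and lower in others. In the gates listed below, cells of both hashtags were on the side of their gate and intervals were clear of 0. These intervals cover counting error only. The share of all genes that meet the same rule was not computed, so the flag does not set Jarid2 and Suz12 apart from other genes. The differences between gates were not tested. For Jarid2 the log2 ratios were 0.40 in stem-cell-like cells, 0.24 in Elane-positive cells, 0.29 in monocyte progenitors and 0.78 in megakaryocyte-or-erythroid cells, against -0.23 in cycling Ltf-positive cells, -0.38 in not cycling Ltf-positive cells and -0.32 in Retnlg-high cells. For Suz12 the ratio was 0.17 in Retnlg-high cells, with an interval that begins at 0.00051. Among those not cycling it was 0.13, with an interval (-0.049 to 0.31) not clear of 0. It was -0.22 in Elane-positive cells, -0.15 in monocyte progenitors and -0.20 in megakaryocyte-or-erythroid cells. Cycling cells made up 53.3% and 39.0%, 63.6% and 49.7%, and 55.2% and 64.3% of these gates in the same order. What these shares add to the ratios was not tested.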

How the results depend on the processing

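The count of genes lower by 1.5-fold over all kept cells, 1 as reported, was 0 without doublet removal, with TMM scaling, with a total that leaves out the 20 most abundant genes, after thinning to 2000 UMIs, in hashtag 2 alone, at a minimum of 500 UMIs and at 2-fold. At 2-fold the count within gates went from 3 to 1 and the count higher in not cycling than in cycling Ltf-positive cells from 1 to 0; a 2-fold threshold for the latter and the settings without azurophil-rich cells were chosen after seeing the data. Among ratios past 1.5-fold, Ezh2 in Retnlg-high cells turned to -0.64 in hashtag 1 alone and to -0.015 with z-score gates, Kdm2b in Retnlg-high cells to -1.41 in hashtag 1 alone, and Jarid2 from Elane-positive to Retnlg-high cells of the library labelled Utx-deleted to 0.19 with TMM scaling; the cause was not tested. Of 51 single-gene ratios, 41 kept their sign under every alternative run. The runs include each hashtag alone. Most list genes were named for the same sign in both hashtags, so part of this count was set in advance. Over all kept cells TMM scaling moved the median of all genes from -0.11 to 0.01. Thinning left out 165 and 79 shallower cells. No paired analysis was possible because each group holds 1 library. Depth limits Cbx7 in every gate and Phf19 in 4 of 7, and 67 stem-cell-like cells limit that gate.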
